A study of Homo sapiens with 15 samples.

Results

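Autophagy is the route by which a cell encloses its own proteins and organelles in a double membrane and delivers them to the lysosome. A kinase complex around ULK1 starts the process, a lipid kinase complex around BECN1 marks the membrane, lipid carriers enlarge it, and a ubiquitin-like conjugation system attaches ATG8 proteins to it. Cargo receptors bind both the cargo and the ATG8 proteins, a SNARE protein fuses the vesicle with the lysosome, and the transcription factors TFEB and TFE3 drive genes of the whole route. The genes described here were the 40 whose symbols belong to these complexes, out of 57820 gene IDs in the files, with 1 row per gene. They comprise 4 genes of the ULK1 kinase complex, 6 of the class III phosphatidylinositol 3-kinase (PI3KC3) complex, 6 of membrane supply and lipid sensing, 10 of the conjugation machinery, 4 ATG8 proteins, 5 cargo receptors, 2 transcription factors and 3 genes of fusion and the lysosomal membrane. All 40 symbols were found. ULK2 was listed at 0 in every U937 library, and OPTN and TFEB were listed at 0 in every HL-60 library, so the number tested was 40 for MOLM-13, 39 for U937 and 38 for HL-60.

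RNA sequencing was carried out on 15 libraries of MOLM-13, U937 and HL-60, established human leukaemia cell lines of the myeloid lineage. Each line carried either pLKO, the empty vector, or shRNF5, a hairpin against RNF5, a membrane-anchored ubiquitin ligase known to limit autophagy through the protease ATG4B. There were 3 pLKO and 2 shRNF5 libraries of MOLM-13, 2 of each construct of U937, and 3 of each of HL-60. The sources give harvest as 7 days in one place and 5 days in another after knockdown, and do not say which hairpin was sequenced, so an effect of a single hairpin cannot be told apart from that of losing RNF5. The replicates are not described as separate infections, and p-values therefore measure the spread between these libraries, which may be technical.

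RNF5 itself was lower in every shRNF5 library. It stood at 1223, 1017 and 1020 normalized read counts in MOLM-13 pLKO and at 76 and 81 in shRNF5. In U937 the values were 648 and 843 against 46 and 74, and in HL-60 they were 506, 689 and 545 against 37, 133 and 43. The HL-60 library shRNF5 replicate 2 thus kept more RNF5 transcript than the other two. Library depth, estimated from the step size of the values, was 9700000 to 24400000 counted reads in 14 libraries and 63800000 in MOLM-13 shRNF5 replicate 1, and in MOLM-13 both shRNF5 libraries were deeper than all 3 pLKO libraries. Of the 15 myeloid markers, 14, 14 and 13 were above 0 across MOLM-13, U937 and HL-60, in that order. CEBPE was listed at 0 in MOLM-13, CD14 in U937 and HL-60, and CSF1R in HL-60. Markers of T, B, erythroid, epithelial and stromal cells were nearly all listed at 0 and summed to at most 723 normalized read counts in any library.

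A gene was called when its adjusted p in limma was under 0.1 and its log2 fold change, shRNF5 minus pLKO on the log2(value + 1) scale, was beyond 0.4 in either direction. Counts of called autophagy genes differed by line. In HL-60, 11 of 38 were called up (28.9%), beside 13.6% of all 12570 genes tested, and none was called down in limma, beside 12.3% of all genes. At an unadjusted p under 0.05, 20 of 38 passed, beside 35.0% of all genes, and 3 of these 20 were lower, PIK3C3, PIK3R4 and AMBRA1. In U937, 3 of 39 were called down, beside 8.74% of all 13165 genes, and none was called up in limma, beside 6.92%. At an unadjusted p under 0.05, LAMP1 was higher (1 of 39, beside 12.8% of all genes) and 4 of 39 were lower (14.3% of all genes). In MOLM-13, none of 40 was called in limma, where 1.03% of all 13026 genes were called up and 1.01% down. At an unadjusted p under 0.05, 5 of 40 were higher there, beside 8.53% of all genes, and 1 was lower, beside 8.46%. The MOLM-13 count depended on the fit: with library weights 10 of 40 were called, 8 up and 2 down. Calls over all 13026 genes also rose with these weights, from 134 to 1120 up and from 132 to 1104 down. In the fit used for the calls, which had no library weights, the called shares in U937 and MOLM-13 were near or below those over all genes. Some other changes to the fit also raised the MOLM-13 count. In bulk RNA, fewer cells of a type and less transcript per cell cannot be told apart.

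**Figure D1:**
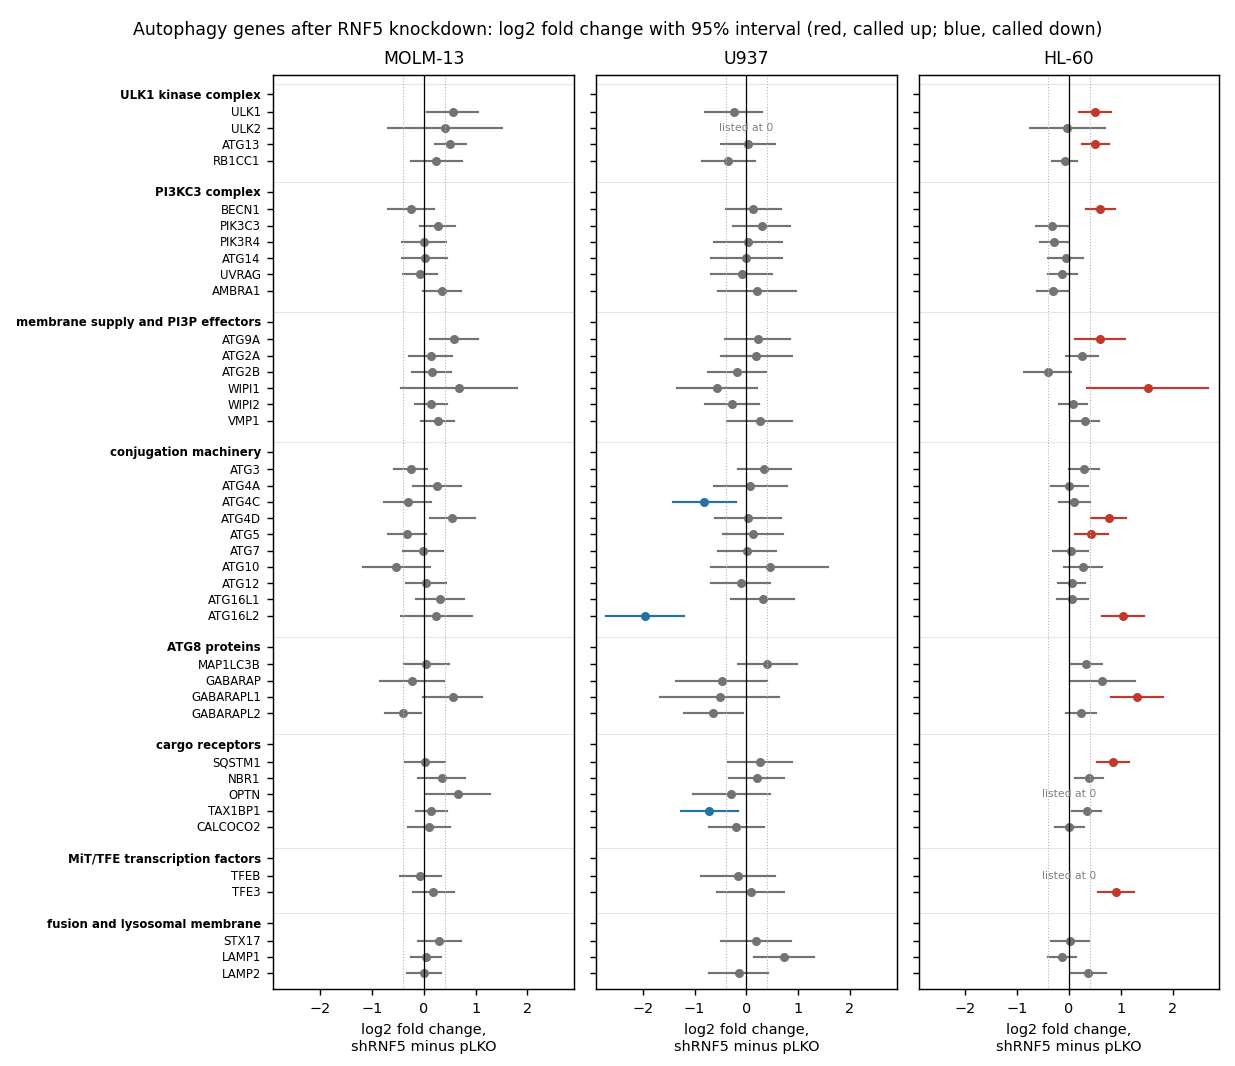
Log2 fold change (shRNF5 minus pLKO, horizontal axis) of each autophagy gene in each line, with its 95% interval, grouped by role. Red marks genes called up, blue genes called down, grey genes not called, and dotted lines the fold limit of 0.4; red points are in HL-60 alone (11) and blue points in U937 alone (3).

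In HL-60 the median log2 fold change over the 38 members, called genes included, was 0.25, beside 0.002 over all genes tested, with 29 members above and 9 below 0. Every shRNF5 library lay above every pLKO library for 15 of 38 members (19.9% over all genes) and below for 3 (18.6% over all genes). With no limit on the fold, 14 of 38 passed an adjusted p of 0.1, beside 29.0% of all genes. In MOLM-13 the median was 0.14, beside 0.007 over all genes, with 29 members above and 11 below 0. There, 13 of 40 members had both shRNF5 libraries above all pLKO libraries (19.6% over all genes) and 4 had both below (19.2%). In U937 the median was 0.03, beside 0.004 over all genes, with 7 of 39 members wholly above (29.0%) and 10 wholly below (30.2%). Over all genes, 6316 lay above and 6254 below 0 in HL-60, and 6623 above and 6403 below in MOLM-13. With a correction for transcript length the member medians were 0.207 in HL-60, 0.083 in MOLM-13 and -0.002 in U937. Over all genes they were then -0.006, 0.003 and 0.028, in that order.

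Among the kinases that start autophagy, ULK1 and its partner ATG13 rose in HL-60. ULK1, the kinase itself, stood at 287, 346 and 352 in pLKO and at 463, 465 and 465 in shRNF5, 1.42-fold higher (log2 fold change 0.50 ± 0.14 SE, adjusted p = 0.031). ATG13, the adaptor that joins ULK1 to the scaffold, was at 1826, 2178 and 1982 against 2675, 2913 and 2914, 1.42-fold higher (adjusted p = 0.014). Neither gene's groups overlapped. RB1CC1, the scaffold also known as FIP200, gave 1274.7 ± 23.2 against 1206.7 ± 44.4 (SD, n = 3), and ULK2, the second kinase, 47.3 ± 7.6 against 48.7 ± 18.9; neither was called. The ULK1 call was lost without HL-60 pLKO replicate 1, the lowest of its pLKO values (adjusted p = 0.12).

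ULK1 and ATG13 also lay above pLKO in both MOLM-13 shRNF5 libraries without being called. ULK1 was at 1278, 804 and 1160 in MOLM-13 pLKO and at 1501 and 1619 in shRNF5 (log2 fold change 0.56, 95% interval 0.07 to 1.04, adjusted p = 0.25). ATG13 was at 2660, 2724 and 2500 against 3894 and 3597 (log2 fold change 0.51, 95% interval 0.21 to 0.81, adjusted p = 0.13). The ATG13 difference passed both limits when MOLM-13 pLKO replicate 1 was left out (adjusted p = 0.065), but not without pLKO replicate 2 or 3. Leaving out replicate 1 also raised the calls over all genes, from 134 to 417 up and from 132 to 455 down. With library weights, ATG13 (adjusted p = 0.020) and ULK1 (adjusted p = 0.020) were called, among 1120 genes up and 1104 down. In one fit over all 15 libraries ATG13 was called (adjusted p = 0.074) and ULK1 was not. Neither was called with no mean-variance trend or with a correction for transcript length. In U937 both ULK1 shRNF5 values lay below both pLKO values without a call, and the ATG13 groups overlapped. ULK1 there was at 2305 and 1732 in pLKO and at 1681 and 1697 in shRNF5 (log2 fold change -0.24). ATG13 there was at 1876 and 1704 against 1863 and 1779 (log2 fold change 0.03). By a limma test of the difference, the ULK1 response in MOLM-13 minus that in U937 was 0.80 (adjusted p = 0.091). For U937 minus HL-60 the difference was -0.75 for ULK1 (adjusted p = 0.050) and -0.48 for ATG13 (adjusted p = 0.060).

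Within the lipid kinase complex, BECN1 rose in HL-60 while the other subunits lay at or below their pLKO levels. BECN1, the regulatory subunit, was at 1209, 1220 and 1201 in pLKO and at 1669, 1738 and 2143 in shRNF5, 1.52-fold higher (log2 fold change 0.60 ± 0.13 SE, adjusted p = 0.0099). The pLKO libraries lay close together and all shRNF5 values were above them. PIK3C3, the catalytic subunit, averaged 1632.3 ± 180.9 against 1301 ± 169.7 (SD, n = 3; log2 fold change -0.33, adjusted p = 0.11). PIK3R4, its pseudokinase partner, had a log2 fold change of -0.29 (adjusted p = 0.12), and AMBRA1, a BECN1-binding regulator, of -0.32 (adjusted p = 0.12). ATG14 and UVRAG, the alternative targeting subunits, had log2 fold changes of -0.07 and -0.13. Of BECN1 exonic bases, 17.1% overlap exons of genes on the opposite strand, and their reads may not have been told apart.

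The PI3KC3 genes had no call in the other lines. BECN1 was at 3182, 2100 and 2267 in MOLM-13 pLKO and at 2015 and 2140 in shRNF5, and at 1296 and 1361 against 1520 and 1394 in U937. Its HL-60 response exceeded that in MOLM-13 by a test of the difference itself (MOLM-13 minus HL-60, -0.86 on the log2 scale, 95% interval -1.34 to -0.37, adjusted p = 0.051). PIK3C3 differed between U937 (log2 fold change 0.29) and HL-60 (-0.33), a difference of 0.62 (adjusted p = 0.049).

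Of the proteins that supply and mark the membrane, ATG9A and WIPI1 were called up in HL-60, both with overlapping groups. ATG9A, the transmembrane lipid scramblase carried on vesicles, was at 291, 427 and 346 in pLKO and at 388, 550 and 697 in shRNF5 (1.51-fold, adjusted p = 0.078). WIPI1, which binds the lipid made by PIK3C3, was at 10, 13 and 17 against 48, 15 and 82 (2.86-fold on the log2(value + 1) scale, 95% interval of the log2 fold change 0.35 to 2.69, adjusted p = 0.068). The shRNF5 replicate 2 library, with 15, lay among the pLKO values of WIPI1. The WIPI1 call was lost when any HL-60 library other than shRNF5 replicate 2 was left out, with log2 fold changes of 0.99 (without shRNF5 replicate 3) to 1.70, and the ATG9A call was lost without pLKO replicate 1 or 3 or shRNF5 replicate 2 or 3. VMP1, an endoplasmic reticulum scramblase, passed the p limit with a log2 fold change of 0.31, under the fold limit (adjusted p = 0.096). ATG2A and ATG2B, the lipid transfer proteins, had log2 fold changes of 0.24 and -0.41, and WIPI2 of 0.07; none was called.

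ATG9A was also higher in both MOLM-13 shRNF5 libraries, at 1385 and 1694 against 1045, 832 and 1225, but was not called (log2 fold change 0.58, adjusted p = 0.21). In U937 it stood at 1539 and 995 in pLKO and at 1643 and 1261 in shRNF5, with overlapping groups. WIPI1 was at 87, 34 and 105 against 87 and 137 in MOLM-13 and at 567 and 373 against 243 and 393 in U937. The U937 response of WIPI1 was below the HL-60 response (U937 minus HL-60, -2.09 on the log2 scale, 95% interval -3.81 to -0.37, adjusted p = 0.065). On the same strand, 38.8% of ATG9A exonic bases overlap another annotated gene, and 28.1% of those of WIPI1 overlap genes on the other strand.

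The conjugation machinery held the gene with the widest swing between lines, ATG16L2, a paralog of the ATG16L1 subunit that places the conjugation enzyme on membranes. In HL-60, ATG16L2 was at 530, 506 and 517 in pLKO and at 1221, 769 and 1290 in shRNF5, 2.06-fold higher (log2 fold change 1.04 ± 0.18 SE, adjusted p = 0.0053). In U937 it was at 4508 and 2901 in pLKO and at 662 and 1297 in shRNF5, a ratio of 0.256 (log2 fold change -1.96 ± 0.34 SE, adjusted p = 0.019). The groups did not overlap in either line, and they moved in opposite directions. In MOLM-13 the pLKO values of 3440, 1545 and 2044 enclosed the shRNF5 values of 2550 and 2694 (log2 fold change 0.24, 95% interval -0.44 to 0.92). The response in U937 minus that in HL-60 was -3.00 on the log2 scale (95% interval -3.96 to -2.04, adjusted p = 6.9e-04), and that in MOLM-13 minus U937 was 2.21 (adjusted p = 0.019). ATG16L1 itself was not called in any line, its log2 fold change being 0.31 for MOLM-13, 0.32 for U937 and 0.07 for HL-60.

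ATG16L2 lies on the plus strand at chr11:72525451-72554719 of GRCh37 (hg19). The 245 bases before it, chr11:72525206-72525450, are shown because this promoter belongs to the gene that moved in opposite directions; the window comes from the RefSeq promoter table (GRCh38.p14) and was placed on GRCh37 by an exact match. It holds none of the motifs searched here, CACGTG, TCACGTGA and TGACGTCA, so no base is in capitals.
ATG16L2: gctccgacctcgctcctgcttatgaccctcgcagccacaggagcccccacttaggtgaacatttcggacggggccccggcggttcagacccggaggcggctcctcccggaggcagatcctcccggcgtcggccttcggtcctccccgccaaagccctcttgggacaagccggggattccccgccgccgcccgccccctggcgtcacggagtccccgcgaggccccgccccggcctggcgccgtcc

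The ATG4 proteases, which trim ATG8 proteins before conjugation and release them afterwards, split by line. ATG4D rose in HL-60, from 295, 331 and 275 to 478, 463 and 600, 1.70-fold higher with no overlap (log2 fold change 0.77 ± 0.15 SE, adjusted p = 0.0086). In MOLM-13 it was at 420, 350 and 325 against 497 and 566 and was not called (log2 fold change 0.55, adjusted p = 0.22). It passed both limits when MOLM-13 pLKO replicate 1 was left out (adjusted p = 0.084), but not without pLKO replicate 2 or 3. In U937 the values of 602 and 437 enclosed those of 543 and 506. ATG4C fell in U937, from 870 and 718 to 419 and 485, a ratio of 0.571 (log2 fold change -0.81 ± 0.27 SE, adjusted p = 0.093). It stood at 615, 902 and 807 against 585 and 647 in MOLM-13 and at 593, 612 and 731 against 659, 750 and 665 in HL-60, overlapping in both. ATG4A had log2 fold changes of 0.25, 0.08 and 0.00 across MOLM-13, U937 and HL-60, in that order.

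ATG4B, the protease whose degradation RNF5 is reported to promote, is not among the 40 genes and was looked at as a further gene. Its values here are of transcript, and its protein was not measured in these data. It stood at 1258 and 843 in U937 pLKO and at 430 and 492 in shRNF5, a ratio of 0.447 (adjusted p = 0.043). In HL-60 it averaged 1104.7 ± 56.5 against 1134.7 ± 113.6 (SD, n = 3), with a 95% interval of the log2 fold change of -0.23 to 0.31. In MOLM-13 the values of 1569, 1149 and 1099 overlapped with 1107 and 1150.

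ATG5, the conjugation subunit that carries ATG12, was called up in HL-60, from 912, 899 and 1000 to 1105, 1181 and 1538 (1.35-fold, adjusted p = 0.058). The highest value was in shRNF5 replicate 3. That call was lost when any HL-60 library other than shRNF5 replicate 1 or 2 was left out, with log2 fold changes of 0.29 to 0.48. ATG5 was at 2589, 2403 and 1955 against 1744 and 1934 in MOLM-13 and at 973 and 1015 against 1249 and 942 in U937, and its HL-60 response differed from that in MOLM-13 (-0.75 on the log2 scale, MOLM-13 minus HL-60, adjusted p = 0.084). The remaining enzymes were not called in any line. ATG7, the activating enzyme, had log2 fold changes of -0.02, 0.01 and 0.03 across MOLM-13, U937 and HL-60, in that order. ATG3, which passes ATG8 proteins to lipid, had -0.25, 0.35 and 0.28, and its MOLM-13 and U937 responses differed by -0.59 (adjusted p = 0.092). ATG10 had -0.53, 0.45 and 0.27, and ATG12 had 0.04, -0.11 and 0.05.

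**Figure D2:**
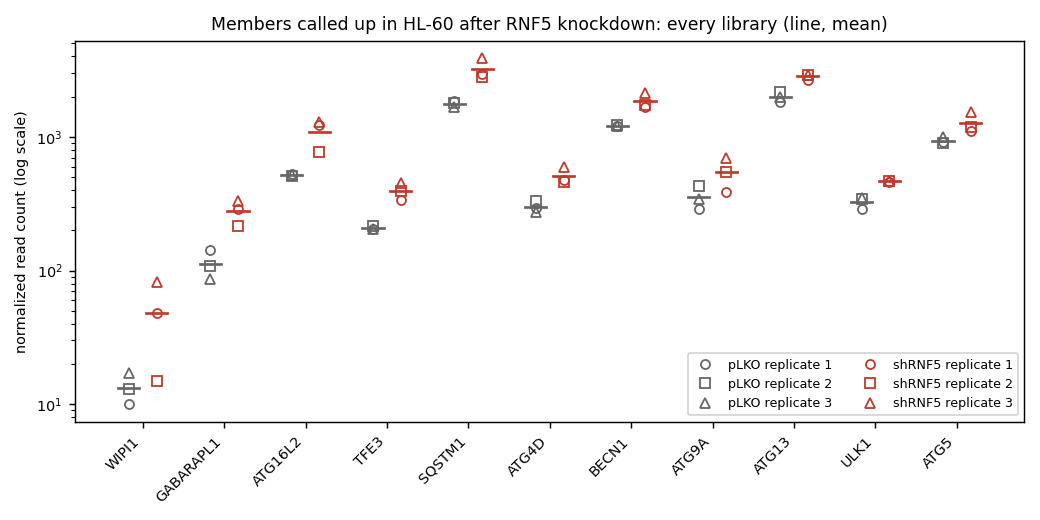
Normalized read count (log axis) of the 11 genes called up in HL-60, in each of the 3 pLKO (grey) and 3 shRNF5 (red) libraries, with a line at each mean. The shRNF5 and pLKO points are apart for all but ATG9A and WIPI1, and shRNF5 replicate 3 (triangle) is the highest library alone in 10 of 11 genes.

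The 3 shRNF5 libraries of HL-60 differed in the order of their values. Replicate 3 gave the highest value alone in 10 of the 11 called genes, whereas replicate 1 gave the lowest in 6 and replicate 2 in 5. These 11 genes were picked as high in shRNF5, which favours a high library, and the order over all genes was not counted. Over all 38 members tested, replicate 3 was the highest in 17 and replicate 1 in 14, and replicate 2 was the lowest in 17. Without replicate 3, 9 genes were called up, ATG9A, WIPI1 and ATG5 no longer among them. Without replicate 2, 11 were called up and PIK3C3 was called down. Calls over all genes moved as well, from 1704 up and 1547 down to 1055 and 936 without replicate 3. Without replicate 2 they were 1767 and 1646.

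Of the ATG8 proteins, which coat the vesicle and bind receptors, GABARAPL1 rose in HL-60. It stood at 142, 108 and 87 in pLKO and at 289, 217 and 334 in shRNF5, 2.49-fold higher with no overlap (log2 fold change 1.32 ± 0.23 SE, adjusted p = 0.0049). In MOLM-13 it was at 161, 134 and 190 against 206 and 269 and was not called (log2 fold change 0.55, adjusted p = 0.30). In U937 the pLKO values of 154 and 62 overlapped with 56 and 83 (log2 fold change -0.51, 95% interval -1.66 to 0.64). The U937 response was below that in HL-60 (U937 minus HL-60, -1.83, 95% interval -2.88 to -0.78, adjusted p = 0.014). Reads of GABARAPL1 can be shared with the near-identical GABARAPL3, so its level is uncertain.

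GABARAPL1 was the member with a TGACGTCA, the full cyclic AMP response element, in its upstream 250 bases, which 2.03% of all 27305 genes with an entry hold. The 30 bases around it on the plus strand, chr12:10365435-10365464 of GRCh37, begin inside a longer annotated form of the gene; capitals mark the motif, which starts 30 bases before the RefSeq start.
GABARAPL1: ggctcgcggggTGACGTCAcagcccgacgc

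The other ATG8 genes gave smaller differences. MAP1LC3B, the LC3 protein most used as an autophagosome marker, was at 357, 346 and 340 against 476, 411 and 431 in HL-60, with no overlap but not called (log2 fold change 0.33, adjusted p = 0.10); its reads can be shared with MAP1LC3B2, listed at 0 in all lines. GABARAP was low in HL-60, at 30, 41 and 31 against 39, 61 and 63 (log2 fold change 0.64, adjusted p = 0.14), and 48.2% of its exonic bases overlap other genes. GABARAPL2 lay below pLKO in both U937 shRNF5 libraries, at 634 and 785 against 1135 and 1060, and in both MOLM-13 shRNF5 libraries, at 977 and 1075 against 1480, 1342 and 1242. Neither was called (adjusted p = 0.14 and 0.25). In HL-60 GABARAPL2 averaged 674.3 ± 26.1 against 792.7 ± 98.7 (SD, n = 3). The response in U937 minus that in HL-60 was -1.12 for GABARAP (adjusted p = 0.058) and -0.86 for GABARAPL2 (adjusted p = 0.011).

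Among cargo receptors, SQSTM1 (p62), the receptor for ubiquitin-tagged proteins, rose in HL-60. It was at 1846, 1806 and 1668 in pLKO and at 2961, 2830 and 3891 in shRNF5, 1.80-fold higher with no overlap (log2 fold change 0.85 ± 0.14 SE, adjusted p = 0.0039, the smallest among the 38 genes). MOLM-13 values of 3444, 2746 and 2984 overlapped with 2711 and 3506, and U937 values of 5306 and 3280 overlapped with 5518 and 4533. The HL-60 response exceeded that in MOLM-13 (MOLM-13 minus HL-60, -0.83, adjusted p = 0.093). Opposite-strand genes cover 22.4% of SQSTM1 exonic bases.

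TAX1BP1, a receptor that recruits SQSTM1-bound cargo to the growing membrane, fell in U937. It was at 14817 and 13151 in pLKO and at 8448 and 8551 in shRNF5, a ratio of 0.609 (log2 fold change -0.72 ± 0.25 SE, adjusted p = 0.097). In HL-60 it went from 4685, 4459 and 3920 to 6174, 5165 and 5197, passing the p limit but not the fold limit (log2 fold change 0.34, adjusted p = 0.084). In MOLM-13 it stood at 6425, 7115 and 6317 against 7179 and 7420 (log2 fold change 0.14). The response in U937 minus that in HL-60 was -1.05 (95% interval -1.47 to -0.64, adjusted p = 0.0020), and MOLM-13 minus U937 was 0.86 (95% interval 0.42 to 1.29, adjusted p = 0.025). These differences were measured with narrower intervals than those of ATG16L2.

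NBR1, which clusters with SQSTM1, passed the p limit in HL-60 with a log2 fold change of 0.39, just under the fold limit (adjusted p = 0.048). OPTN, a mitophagy receptor, was listed at 0 in HL-60. It was at 300, 428 and 556 against 587 and 739 in MOLM-13 (log2 fold change 0.67, adjusted p = 0.27) and averaged 729.5 ± 328.8 against 569.5 ± 89.8 in U937 (SD, n = 2). CALCOCO2, a receptor for bacteria and mitochondria, had log2 fold changes of 0.10, -0.19 and 0.00 across MOLM-13, U937 and HL-60, in that order.

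All 3 U937 calls rest on small groups. Leaving out pLKO replicate 2, shRNF5 replicate 1 or shRNF5 replicate 3 removed all of them, and these fits called 0, 0 and 6 genes in the whole table. Without U937 pLKO replicate 3, ATG16L2 and ATG4C were still called and TAX1BP1 was not (adjusted p = 0.12). The log2 fold changes ranged from -2.45 to -1.48 for ATG16L2, -0.95 to -0.67 for ATG4C and -0.80 to -0.63 for TAX1BP1 when 1 library was left out.

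**Figure D3:**
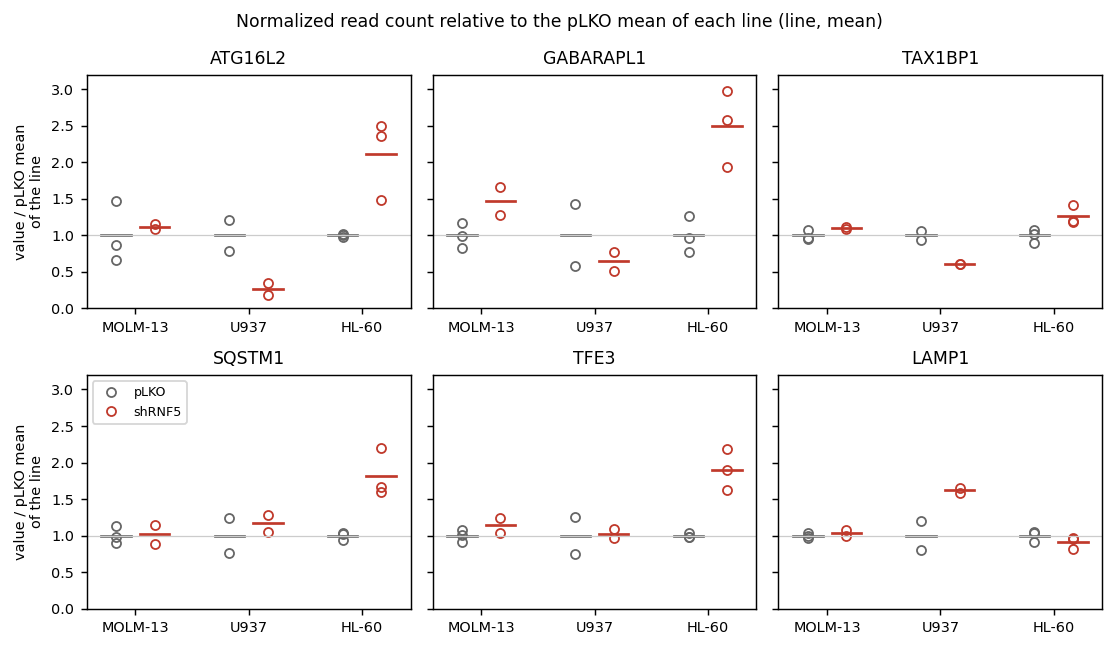
Normalized read count of ATG16L2, GABARAPL1, TAX1BP1, SQSTM1, TFE3 and LAMP1 divided by the pLKO mean of the same line (vertical axis, from 0), for each pLKO (grey) and shRNF5 (red) library, with a line at each mean. ATG16L2 is above pLKO in HL-60 and below it in U937, SQSTM1 and TFE3 are apart from pLKO in HL-60 alone, and LAMP1 is apart in U937 alone.

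TFE3, a transcription factor of lysosomal and autophagy genes, rose in HL-60. It was at 204, 216 and 205 in pLKO and at 337, 394 and 454 in shRNF5, 1.88-fold higher with no overlap (log2 fold change 0.91 ± 0.16 SE, adjusted p = 0.0049). In U937 the pLKO values of 1407 and 838 enclosed 1083 and 1220, and the response in U937 minus that in HL-60 was -0.83 (95% interval -1.45 to -0.21, adjusted p = 0.046). In MOLM-13 it was at 585, 528 and 628 against 605 and 717. TFEB, the related factor, was listed at 0 in HL-60, averaged 728.3 ± 26.4 (SD, n = 3) against 700.5 ± 123.7 (SD, n = 2) in MOLM-13, and 791.5 ± 338.7 against 675 ± 25.5 in U937 (SD, n = 2).

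LAMP1, an abundant protein of the lysosomal membrane, differed between the lines the other way round. It was at 3253 and 4847 in U937 pLKO and at 6439 and 6693 in shRNF5, 1.65-fold higher with no overlap but not called (log2 fold change 0.73, adjusted p = 0.11); it was called without pLKO replicate 3 or in one fit over all libraries. In HL-60 it was at 1655, 1622 and 1440 against 1492, 1289 and 1532 (log2 fold change -0.13), and in MOLM-13 at 5076, 5267 and 5467 against 5246 and 5663 (log2 fold change 0.05). The U937 response exceeded that in HL-60 by 0.86 (95% interval 0.38 to 1.33, adjusted p = 0.012), and MOLM-13 minus U937 was -0.68 (adjusted p = 0.086). LAMP2, needed for fusion with the lysosome, was at 5017, 4172 and 4900 against 6908, 4917 and 6590 in HL-60 (log2 fold change 0.37, adjusted p = 0.10). STX17, the fusion SNARE, had log2 fold changes of 0.30, 0.19 and 0.02 across MOLM-13, U937 and HL-60, in that order.

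The factors TFEB and TFE3 bind an E-box, CACGTG, best within TCACGTGA, which contains it. RefSeq promoter entries were matched for 35 of the 40 genes, all but STX17, ATG4D, LAMP2, UVRAG and RB1CC1, and the 250 bases before each start were searched on both strands. CACGTG was found for 3 of 35 members, LAMP1, ATG3 and ATG14 (8.57%), beside 7.73% of 27305 genes with an entry, and for 0 of the 10 HL-60 risers with an entry. TCACGTGA was found for LAMP1 alone among the members, and for 1.04% of all genes. No member with an E-box in this window was called in any line. A match is a description of letters and not of binding.

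The LAMP1 window holds 5 copies of CACGTG and is shown whole, with every copy in capitals; the copy nearest the start is part of TCACGTGA. It lies on the plus strand at chr13:113951304-113951553, directly before the gene at chr13:113951554-113977987. The ATG3 stretch, chr3:112280810-112280839 on the minus strand, and the ATG14 stretch, chr14:55878552-55878581 on the minus strand, show the 30 bases around their single copy. All positions are GRCh37, and the ATG3 stretch lies inside a longer annotated form of the gene.
LAMP1: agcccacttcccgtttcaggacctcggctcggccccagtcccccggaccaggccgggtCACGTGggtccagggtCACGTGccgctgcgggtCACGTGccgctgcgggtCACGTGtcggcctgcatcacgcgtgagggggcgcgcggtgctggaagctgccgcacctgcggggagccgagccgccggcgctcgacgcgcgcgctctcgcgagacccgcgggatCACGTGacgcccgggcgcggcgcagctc
ATG3: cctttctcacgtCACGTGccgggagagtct
ATG14: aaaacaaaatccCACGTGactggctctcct

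Set side by side, U937 and HL-60 gave the most different responses. A test of the difference between the 2 responses passed an adjusted p of 0.1 in limma for 13 of 37 members, beside 37.2% of all 11072 genes tested in every line. Of these 13, 11 had the higher log2 fold change in HL-60, and LAMP1 and PIK3C3 the higher one in U937. MOLM-13 differed from U937 for 5 of 37 members, beside 15.4% of all genes, and from HL-60 for 3 of 37, beside 8.82%. The shares were thus close to those over all genes in each comparison. Across the 37 members, Pearson's r between the U937 and HL-60 log2 fold changes was -0.36, beside -0.113 across all genes. It was 0.276 over 38 members for MOLM-13 and HL-60 (0.112 over all genes) and -0.071 over 39 members for MOLM-13 and U937 (0.2 over all genes). These correlations are across genes, which are not independent replicates.

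**Figure D4:**
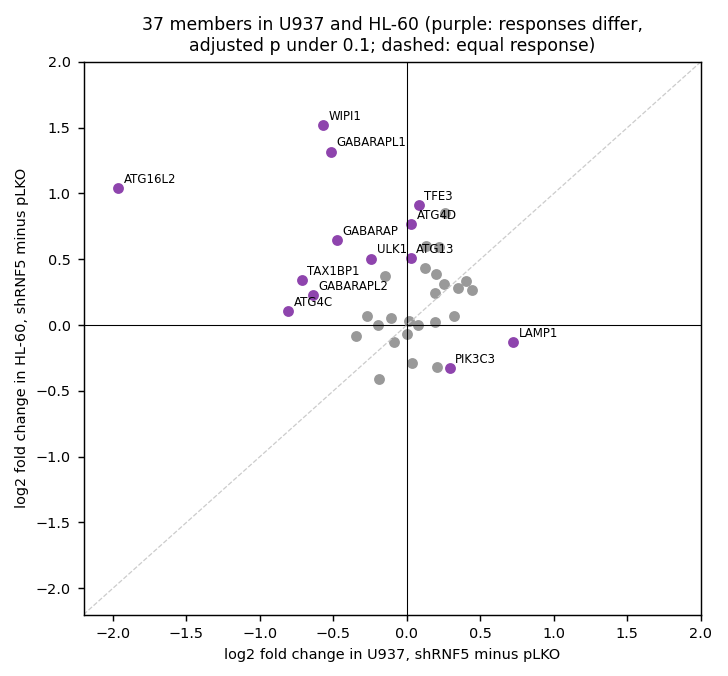
Log2 fold change (shRNF5 minus pLKO) of 37 autophagy genes in U937 (horizontal axis) and HL-60 (vertical axis); the dashed line marks equal responses. The 13 purple points differ between the lines at an adjusted p under 0.1, with ATG16L2 at -1.96 and 1.04 farthest from the line and LAMP1 and PIK3C3 on its other side.

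Of 32 lysosomal enzymes and membrane proteins tested in HL-60, 15 were called up and 1 down, beside 13.6% and 12.3% of all genes, with a median log2 fold change of 0.43, beside 0.002 over all genes. CTSZ, a lysosomal carboxypeptidase, went from 177.7 ± 15.8 to 1014.0 ± 465.8 (SD, n = 3; log2 fold change 2.40, adjusted p = 0.0012), and CTSD, the aspartic protease cathepsin D, from 1052.0 ± 195.7 to 2985.0 ± 852.7 (log2 fold change 1.48, adjusted p = 0.0018). GM2A, a ganglioside activator, fell in HL-60 (log2 fold change -0.71, adjusted p = 0.0059) and in U937 (-1.20, adjusted p = 0.032). In U937 the same list had 2 called up and 3 down of 31, beside 6.92% and 8.74% of all genes. The 3 down were GM2A, GAA and ASAH1; apart from GM2A these names were chosen after their values were seen. None of 33 was called in MOLM-13, where 5 had an unadjusted p under 0.05, beside 2213 of all 13026 genes. CACGTG was found upstream of 9 of the 23 lysosomal genes with a promoter entry (39.13%), beside 7.73% of all genes with an entry. Exons of other genes overlap 48.2% of CTSD and 31.7% of CTSZ exonic bases.

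Of 15 subunits of the V-ATPase, the proton pump that acidifies the lysosome, 3 were called up in HL-60 and none down, beside 13.6% and 12.3% of all genes. They were ATP6AP1 (1034.7 ± 170.1 against 2607.3 ± 554.2, adjusted p = 0.0014), ATP6V0E1 (log2 fold change 0.86) and ATP6V1D (0.71). No subunit was called in U937 or MOLM-13 in limma. An unadjusted p under 0.05 was found for 1 of 14 in U937, beside 3568 of all 13165 genes. In MOLM-13 it was found for 3 of 15, beside 2213 of all 13026 genes.

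Autophagy genes outside the 40 were called in both directions. In HL-60, 8 of 31 were called up and 2 down, beside 13.6% and 12.3% of all genes. The count for U937 was 2 up against 4 down of 31, beside 6.92% and 8.74% of all genes. For MOLM-13 it was 1 each way of 31, beside 1.03% and 1.01%. VAMP8, a SNARE of the vesicle and lysosome fusion step, rose in HL-60, from 3946.0 ± 627.5 to 6435.3 ± 1720.8 (SD, n = 3; adjusted p = 0.027), and fell in U937, from 4312.0 ± 84.9 to 2415.5 ± 596.1 (SD, n = 2; adjusted p = 0.068). PINK1, the kinase that flags damaged mitochondria, rose in HL-60 from 114.7 ± 7.1 to 264.7 ± 58.4 (adjusted p = 0.0039); 39.5% of its exonic bases overlap antisense genes. NCOA4, the receptor for ferritin, fell in HL-60 (log2 fold change -0.54, adjusted p = 0.032) and in MOLM-13 (-0.65, adjusted p = 0.083), and was the single gene of this list called down in MOLM-13. FYCO1 was the single one called up there, a name chosen after its value was seen.

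**Figure D5:**
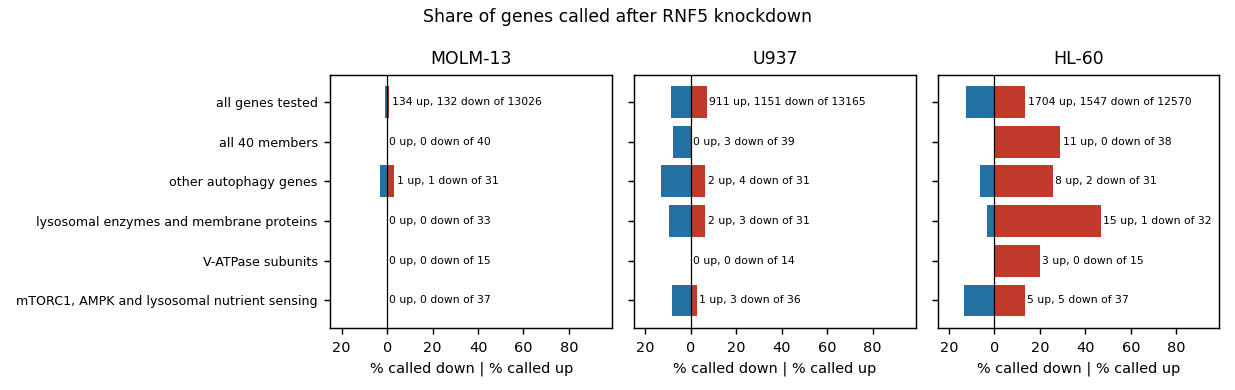
Share of genes called down (blue, to the left) and up (red, to the right), in percent, among all genes tested, the 40 autophagy genes and 4 further lists, in each line. In HL-60 the autophagy genes (11 up, 0 down of 38) and the lysosomal genes (15 up, 1 down of 32) are mainly red, whereas all genes are nearly balanced (1704 up, 1547 down of 12570).

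Myeloid markers were also called in HL-60 and U937. In HL-60, 5 of 13 were called up, PTPRC, MPO, ELANE, AZU1 and LYZ, and 2 down, CD33 and FCGR1A. These counts stand beside 13.6% and 12.3% of all genes. ELANE, neutrophil elastase, which is stored in lysosome-like granules, went from 4460.3 ± 731.8 to 15119.7 ± 4367.3 (SD, n = 3; log2 fold change 1.73, adjusted p = 0.0012). The summed marker level was 122544 to 148727 normalized read counts in HL-60 pLKO and 165633 to 246617 in shRNF5, most of it MPO. In U937, 3 of 14 were called down, ELANE, AZU1 and ITGAX, beside 8.74% of all genes. The U937 sum was 44302 to 48261 in pLKO and 25559 to 29353 in shRNF5. In MOLM-13 none of 14 was called, and 1 had an unadjusted p under 0.05, beside 2213 of all 13026 genes. The MOLM-13 sums overlapped, at 82209 to 110646 and 90055 to 116189. The part of these markers, and of the depth gap in MOLM-13, in the values of the autophagy genes was not tested.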

How the data were processed

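All 15 libraries were used, 1 file each. Per the labels, reads were counted on hg19 with featureCounts (Subread) and normalized with edgeR. Whether the lines were normalized separately is not given in the sources used here, and the values are treated as normalized within each line. The deposited values are normalized read counts that the authors rounded to whole numbers, treated here as a score and not as raw counts, so no count model was run and levels were not tested between lines. Genes that the authors' filter removed appear at 0. The labels and the methods name different library kits (3' tag or whole transcript), so levels were not compared between genes. Values were analysed as log2(value + 1) with limma 3.58.1 in R 4.3.3 (empirical Bayes with a mean-variance trend, Benjamini-Hochberg over all genes above 0 in the line), fitting each line alone and, for differences between lines, all 15 libraries as 6 groups. The test was tried on simulated data. Members, lists and named genes (every member called in some line by library; up to 4 genes of each further list, those called in the most lines, then by size) were chosen with earlier results of these data known. The values of 1 gene that the naming rule selects are not reported here.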

Additional observations from a re-analysis of the deposited data

Results flagged for a closer look

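Responses to RNF5 knockdown differed between lines for the following genes by a limma test of the difference (adjusted p under 0.1). Each is given as the first line's log2 fold change minus the second's. The shares of members were close to those over all genes, 35.1% beside 37.2% for U937 and HL-60. They were 13.5% beside 15.4% for MOLM-13 and U937, and 8.11% beside 8.82% for MOLM-13 and HL-60. Between U937 and HL-60, ATG16L2 differed by -3.00, WIPI1 by -2.09, GABARAPL1 by -1.83, GABARAP by -1.12, TAX1BP1 by -1.05, ATG4C by -0.91, GABARAPL2 by -0.86, TFE3 by -0.83, ULK1 by -0.75, ATG4D by -0.73 and ATG13 by -0.48, all lower in U937. LAMP1 (0.86) and PIK3C3 (0.62) were higher in U937. Between MOLM-13 and U937, ATG16L2 differed by 2.21, TAX1BP1 by 0.86 and ULK1 by 0.80, higher in MOLM-13, and LAMP1 by -0.68 and ATG3 by -0.59. Between MOLM-13 and HL-60, BECN1 differed by -0.86, SQSTM1 by -0.83 and ATG5 by -0.75, all lower in MOLM-13. Groups had 2 or 3 libraries, so no library was tested as standing apart from its group.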

How the results depend on the processing

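No named difference that was called reversed its sign under any alternative run. ATG13, BECN1, ATG4D, ATG16L2, GABARAPL1, SQSTM1 and TFE3 were called in HL-60 under all 17 alternatives. ULK1 was lost in 1, ATG9A in 6 of 17, WIPI1 in 7 of 16 and ATG5 in 8 of 17; in U937, ATG16L2 was lost in 4, ATG4C in 5 and TAX1BP1 in 8 of 14. The HL-60 count was 7 to 12 when 1 library was left out, with 7 without pLKO replicate 1. For MOLM-13, where none was called, library weights gave 10 members, one fit over all libraries 1, an unadjusted p under 0.05 gave 5, and leaving out 1 library 0 to 3 (3 without pLKO replicate 1). The U937 count of 3 became 0 with no mean-variance trend, 5 in one fit or at an unadjusted p under 0.05, 1 at an adjusted p under 0.05, and 0 to 3 without 1 library. Members differing between MOLM-13 and U937 (5) became 2 at an adjusted p under 0.05 or with no trend and 0 to 11 without 1 library. Between MOLM-13 and HL-60 (3), they became 0 at an adjusted p under 0.05, 1 with no trend or a length correction, 11 with library weights and 0 to 8 without 1 library. Between U937 and HL-60 (13), they were 7 to 16 without 1 library. Calls over all genes moved too. In U937, 911 up and 1151 down became 162 and 313 with no trend. They became 2162 and 1832 of 11072 genes in one fit, and 1682 and 1886 at an unadjusted p under 0.05. In HL-60, 1704 up and 1547 down became 1225 and 1083 without pLKO replicate 1. In MOLM-13, 134 up and 132 down became 989 and 984 at an unadjusted p under 0.05. For differences between lines, calls over all genes were not counted under the alternatives. The cause was not tested. Numbers were not taken as pairs: same-numbered libraries correlated at 0.386, 0.12 and -0.047 in HL-60, and in MOLM-13, with 2 pairs, at -0.133 and -0.447 by titles and at 0.447 and 0.266 by file names. A replicate block gave 1 call in MOLM-13 by titles and 11 by file names, ULK1 (adjusted p = 0.0015) and ATG13 (0.0017) among them. Over all 13026 genes, the block called 384 up and 354 down by titles, and 1286 up and 1209 down by file names. Library weights called 1120 up and 1104 down over the same genes. The block changed no HL-60 count by over 1.5 times. U937 shares 1 number between constructs, so no such fit was made. The spread of 2 or 3 libraries, and in MOLM-13 a depth range of 9700000 to 63800000 reads, limit these calls.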

Other observations

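Nutrient sensing at the lysosome holds autophagy in check. Of 37 genes of mTORC1, AMPK and lysosomal nutrient sensing tested in HL-60, 5 were called up and 5 down, beside 13.6% and 12.3% of all genes, with a median log2 fold change of 0.04, beside 0.002 over all genes. In U937 1 was called up and 3 down of 36, beside 6.92% and 8.74% of all genes. In MOLM-13 none of 37 was called in limma, where 10 had an unadjusted p under 0.05, beside 2213 of all 13026 genes. DEPTOR, an inhibitory partner of mTOR, fell in U937, from 317.5 ± 50.2 to 52.5 ± 2.1 (SD, n = 2; log2 fold change -2.56, adjusted p = 0.014), and in HL-60, from 97.7 ± 7.1 to 64.7 ± 13.6 (SD, n = 3; adjusted p = 0.083). In MOLM-13 it averaged 216.3 ± 34.4 against 110.0 ± 0.0 without being called (adjusted p = 0.12). Of the Ragulator subunits that tether mTORC1 to the lysosome, LAMTOR4 fell in U937 (log2 fold change -1.35, adjusted p = 0.021) while LAMTOR1 rose there (1.30, adjusted p = 0.048). RRAGB, a Rag GTPase, fell in U937 (-1.04, adjusted p = 0.065).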
